A study of Mus musculus with 8 samples.

Results

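The genes described here are the globins and the enzymes that make heme: Hba-a1 (adult alpha globin), Hbb-b1 (adult beta globin), Mb (myoglobin), Alas1 and Alas2 (the housekeeping and erythroid forms of 5-aminolevulinate synthase) and Fech (ferrochelatase). They were chosen by gene symbol or synonym in the platform annotation, and each gene was represented by its probe with the highest mean over the 8 arrays. Of the 6 genes listed, 5 had a probe, with 8 probes in all, out of 16593 genes and 25697 probes measured. No probe here carries the name Hbb-b1. C57BL/6 mice carry the Hbb-s haplotype, whose adult beta globin genes are named Hbb-bs and Hbb-bt, and the Hbb-bt probe is therefore described beside the listed genes. That choice was made after its values were seen.

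The tissue was the tibialis anterior, a mostly fast hindlimb muscle, of male C57BL/6 mice aged 8 weeks. One group of 4 muscles had been transfected 7 days before harvest with a plasmid that encodes spermine oxidase, the enzyme that oxidises spermine to spermidine with release of hydrogen peroxide. The other 4 muscles had been transfected with a control plasmid, so that every muscle had undergone transfection. Neither the promoter of the plasmid nor the way of transfection nor the share of fibres reached is stated. Muscles of both legs were harvested and no label ties a muscle to an animal, so some of the 8 may share a mouse, and p-values describe only the spread among these muscles.

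Total RNA of each muscle was read on 1 Illumina bead array, and all values are log2 signals. The median of all values was 8.33, close to the lowest, so a probe near that level sits on a floor that compresses differences. Precision is limited by having 4 arrays in each group. The muscle fibre genes Ckm, Mylpf, Tnnt3 and Myh4 read 13.72 or more in every muscle. Smox, the plasmid gene, was higher in each spermine oxidase muscle than in any control muscle on all 5 of its probes, by 2.22-fold to 10.8-fold. Differences are spermine oxidase minus control with the standard error from limma, and adjusted p-values are Benjamini-Hochberg values over all 16593 genes. With limma 0 genes (0%) passed an adjusted p of 0.05, so that no gene below did, while 1833 (11.0%) had an unadjusted p under 0.05. That fit took no account of muscle numbers. With equal numbers as blocks, which no label ties to an animal, 266 genes passed.

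Haemoglobin is a tetramer of alpha and beta globin chains, each holding a heme, and its mRNA is made in red cell precursors and persists in reticulocytes, the youngest circulating red cells. Myoglobin is the single-chain globin that stores oxygen and speeds its diffusion in muscle fibres, above all in oxidative ones. Heme synthesis starts in mitochondria, where 5-aminolevulinate synthase joins glycine to succinyl-CoA, continues in the cytosol and ends in mitochondria, where ferrochelatase inserts iron into protoporphyrin. Alas1 serves most tissues and is held down by heme, whereas Alas2 is used by erythroid cells and is transcribed under the control of GATA1.

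The sequences before the start sites of the erythroid genes are shown because Hba-a1, Hbb-bt and Alas2 varied together over the muscles, and that of Alas1 is shown for contrast. Each is the 150 bases that precede the annotated start in RefSeq's GRCm38.p6, 5′ to 3′ on the gene's strand. Capitals mark, on either strand, the GATA words (the letters GATA after A or T and before A or G, as in AGATAA), the CACCC box, the CCAAT box and the TATAAA box, none of which overlap one another in these windows.
Hba-a1, chr11:32283522-32283671, plus strand: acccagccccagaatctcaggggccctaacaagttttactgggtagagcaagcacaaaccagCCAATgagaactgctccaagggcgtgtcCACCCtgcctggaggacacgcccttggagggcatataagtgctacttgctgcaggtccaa
Hbb-bt, chr7:103813924-103814073, minus strand: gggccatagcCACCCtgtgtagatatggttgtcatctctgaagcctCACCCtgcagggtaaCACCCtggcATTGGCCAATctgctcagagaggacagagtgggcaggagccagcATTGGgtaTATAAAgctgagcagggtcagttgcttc
Alas2, chrX:150547267-150547416, plus strand: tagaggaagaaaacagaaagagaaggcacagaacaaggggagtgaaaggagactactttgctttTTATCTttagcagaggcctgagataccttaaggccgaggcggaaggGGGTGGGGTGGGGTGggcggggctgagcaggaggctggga
Alas1, chr9:106247955-106248104, minus strand: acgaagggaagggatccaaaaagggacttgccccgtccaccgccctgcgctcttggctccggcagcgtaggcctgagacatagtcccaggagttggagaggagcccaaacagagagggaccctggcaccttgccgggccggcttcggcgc
The Hba-a1 window held 1 CCAAT and 1 CACCC, and the Hbb-bt window held 3 CCAAT, 3 CACCC and 1 TATAAA. The Alas2 window held 1 GATA word, which begins at position -86 from the annotated start, and 3 CACCC, all on the opposite strand. The Alas1 window shown, that of the first of 2 annotated starts, held none of the 4 motifs, nor did the other. Of all 32851 windows of this length in the table, 16% held a GATA word, 37.4% CACCC, 24.5% CCAAT and 7.57% TATAAA, so that CACCC and CCAAT are common. Promoters were found for 5 of the 6 genes looked for. Mb has 3 annotated starts, and its windows are not shown. That of start 2 held 1 CACCC and 1 CCAAT, as many as the Hba-a1 window. That of start 3 held 1 CACCC, and that of start 1 none of the 4 motifs. These boxes are therefore not particular to the erythroid genes shown. Which start of Alas1 or Mb is used in this muscle is not known from these data. These matches describe letters and are not evidence of binding.

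On the deposited scale alpha globin had the largest difference of the 5 listed genes with a probe. Hba-a1 (probe ILMN_1212702) read 13.12, 12.72, 13.47 and 13.03 in spermine oxidase muscles 1 to 4, against 12.35, 12.34, 12.83 and 11.98 in control muscles 1 to 4. Spermine oxidase muscles 1, 3 and 4 lay above every control muscle, while spermine oxidase muscle 2 lay below control muscle 3, so the groups overlapped. The means were 13.09 ± 0.31 (SD, n = 4) after spermine oxidase and 12.37 ± 0.35 (SD, n = 4) in controls, a 1.64-fold ratio of signals. The log2 difference was 0.71 ± 0.21, with a 95% interval of 0.23 to 1.19. It did not pass over all genes with limma (unadjusted p = 0.00914, adjusted p = 0.286). With the group labels permuted in all 70 ways, the exact two-sided p was 0.0571, and 0.0286 is the smallest it could be. By size alone 16 of the 16593 genes differed more in the upward direction. Hba-a1 ranked 36 by size in either direction but 527 by limma p. Hba-a1 and its copy Hba-a2 are nearly identical, and no probe here is named for Hba-a2, so the signal of this probe may come from both.

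Beta globin differed in the same direction. The Hbb-bt probe (ILMN_1235372) read 9.41, 9.24, 10.13 and 9.62 in spermine oxidase muscles 1 to 4, against 8.98, 9.12, 9.50 and 8.89 in control muscles 1 to 4. Spermine oxidase muscle 3 was the highest of the 8 and control muscle 3 the highest control, above spermine oxidase muscles 1 and 2. Hbb-bt averaged 9.60 ± 0.39 after spermine oxidase and 9.12 ± 0.27 in controls (SD, n = 4 each), 1.39-fold. The log2 difference of 0.47 ± 0.21 had a 95% interval of -0.011 to 0.96 and did not pass (limma adjusted p = 0.460). Without spermine oxidase muscle 3 it was 0.30. With the lowest value of the table subtracted on the linear scale and an offset of 16 added, it was 0.79 and that of Hba-a1 0.74, so the sizes of the globin differences have no settled order. The near-identical Hbb-bs has no probe named for it here, and the signal of the 2 adult genes may be mixed.

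The other haemoglobin genes gave the array's floor. The 7 probes of the embryonic globins Hba-x, Hbb-y and Hbb-bh1, of the theta globins Hbq1a and Hbq1b, and of Hbb-b2, an adult beta gene of another haplotype, read between 8.16 and 8.32 in all 8 muscles. Their differences ran from -0.019 to 0.012. On the array as a whole 49.7% of probes had a mean no higher than the top of that range. Of 8 measured haemoglobin genes, therefore, only Hba-a1 and Hbb-bt read above it, and the list's median difference of -0.0048 describes the genes at the floor.

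Other cells that could bring globin mRNA were looked at through their markers. Of 20 listed erythroid genes 15 were measured, 5 were higher and 10 lower after spermine oxidase, and their median difference was -0.0071 beside -0.00064 for all genes. In every muscle 7 of the 15 lay within or under the range of the globins at the floor: Epb42, Gata1, Rhd, Kel, Ermap, Trim10 and Hemgn. The band 3 gene Slc4a1 read 8.22, 8.28, 8.33 and 8.34 in spermine oxidase muscles and 8.26, 8.28, 8.33 and 8.33 in controls. Klf1, an erythroid transcription factor gene, read between 8.29 and 8.36 and differed by -0.0075 ± 0.02. Rhag, the Rh-associated glycoprotein gene, read between 8.28 and 8.36 and differed by 0.03 ± 0.02. Slc4a1, Klf1, Rhag, Epor and Bpgm all read between 8.21 and 8.38, near the floor. The median difference of the erythroid list therefore largely describes genes at or near the floor. An unadjusted p under 0.05 was reached by 1 erythroid gene in each direction, beside 6.33% of all genes upward and 4.72% downward. Tspan33, a tetraspanin gene, read 8.38, 8.45, 8.42 and 8.34 in spermine oxidase muscles and 8.49, 8.45, 8.46 and 8.48 in controls, a log2 difference of -0.07 ± 0.03 (limma adjusted p = 0.382). The other was Sptb, the beta spectrin that muscle fibres use too. It averaged 11.54 ± 0.25 after spermine oxidase and 11.08 ± 0.19 in controls (SD, n = 4 each). Its groups did not overlap, as was so in the upward direction for 3.66% of all genes, and it did not pass (limma adjusted p = 0.304). The mean log2 level of the 15 erythroid genes ran from 8.49 to 8.52 in spermine oxidase muscles and from 8.45 to 8.48 in controls. Without Sptb these ranges were 8.28 to 8.30 in spermine oxidase muscles and 8.28 to 8.30 in controls. Alas2, described below, is also among the 15 and among the 5 that were higher. Without Sptb and Alas2 the ranges were 8.26 to 8.28 in spermine oxidase muscles and 8.27 to 8.29 in controls. Neither removal was planned. Both took out genes that were higher, while Tspan33, which was lower, stayed in. In whole muscle RNA a different number of cells of a type and a different amount of mRNA in each cannot be told apart.

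Vessel genes were higher too. All 11 measured endothelial markers were higher after spermine oxidase, with a median difference of 0.15, and 6 of the 11 had an unadjusted p under 0.05 in that direction, beside 6.33% of all genes. Their mean log2 level ran from 9.89 to 10.09 in spermine oxidase muscles and from 9.76 to 9.85 in controls. Kdr, a VEGF receptor gene, read 8.26, 8.29, 8.36 and 8.28 in spermine oxidase muscles and 8.28, 8.27, 8.29 and 8.29 in controls. It exceeded the globins at the floor in spermine oxidase muscle 3 alone. The angiopoietin receptor gene Tek differed by 0.34 ± 0.06, the VEGF receptor gene Flt1 by 0.51 ± 0.16, the adhesion molecule gene Pecam1 by 0.21 ± 0.04 and the cadherin gene Cdh5 by 0.12 ± 0.05. None passed over all genes (limma adjusted p of 0.179 to 0.382). The dimmer probe of Flt1, at 8.37 after spermine oxidase and 8.30 in controls, differed by 0.07 ± 0.04. That of Pecam1 differed by 0.10 ± 0.02. Of 13 measured markers of blood neutrophils and platelets, 7 were higher and 6 lower with a median of 0.00021. None had an unadjusted p under 0.05, beside 11.0% of all genes. The granulocyte genes S100a8 and Retnlg differed by -0.35 ± 0.23 and -0.17 ± 0.08, Ngp by -0.04 ± 0.02 and the platelet integrin gene Itga2b by -0.04 ± 0.03. In the other direction the platelet gene Pf4, between 9.41 and 10.18, differed by 0.16 ± 0.18. The mean level of the 13 markers ran from 8.46 to 8.55 in spermine oxidase muscles and from 8.48 to 8.62 in controls. Ngp, Elane, Gp9 and Gp1bb lay at the floor. The part of vessel or blood content in the globin difference was not tested.

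**Figure D1:**
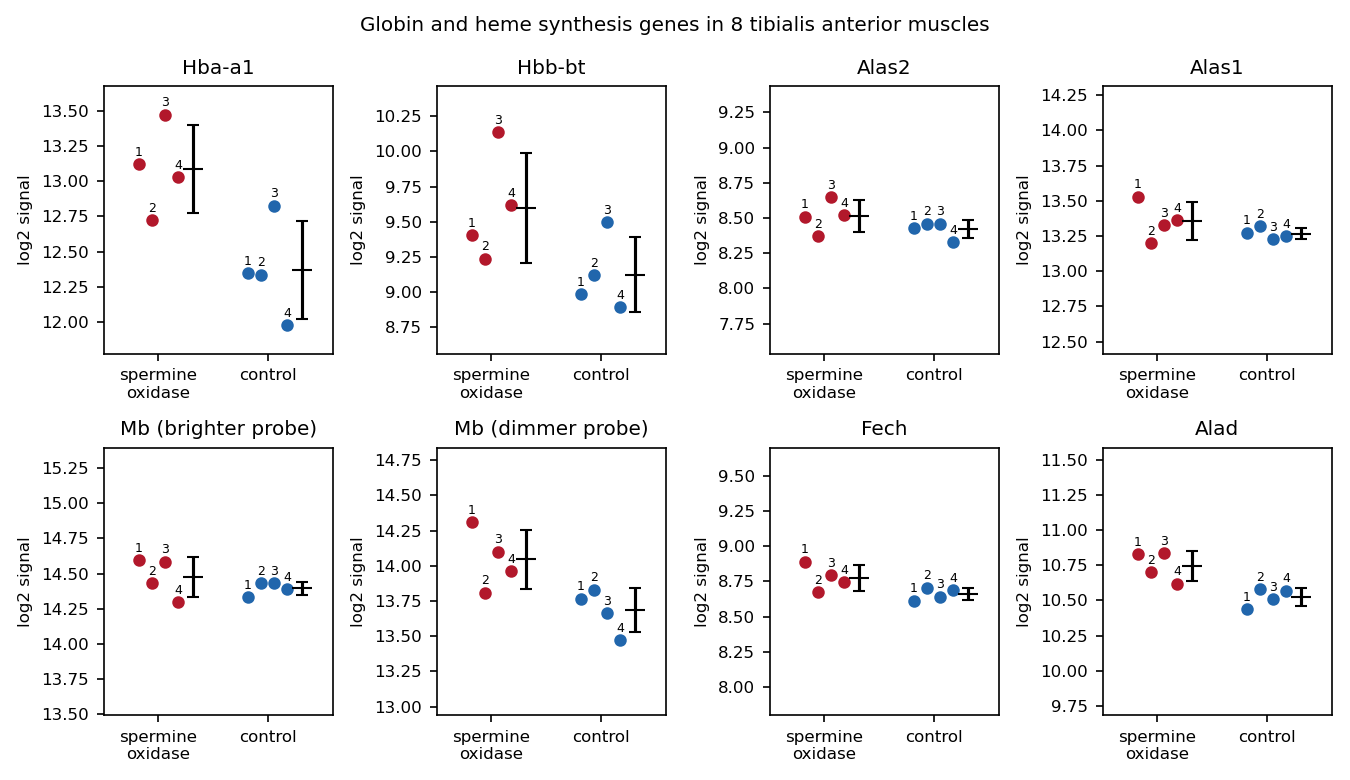
Log2 signal of the globin and heme synthesis genes in each muscle, spermine oxidase (red) left of control (blue), with the muscle number beside each point and the mean ± SD (n = 4) as a bar. Every panel spans the same number of log2 units: Hba-a1 and Hbb-bt spread most, Mb (brighter probe), Alas1, Alas2 and Fech least, and Alad separates the groups.

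Myoglobin gave different sizes on its 2 probes. The brighter probe (ILMN_2954987) read 14.59, 14.43, 14.59 and 14.30 in spermine oxidase muscles 1 to 4, against 14.33, 14.43, 14.43 and 14.39 in control muscles 1 to 4. Spermine oxidase muscles 1 and 3 were the highest of the 8. Spermine oxidase muscle 2 lay only 0.0006 above control muscle 2, the highest control. Spermine oxidase muscle 4 was the lowest of the 8, so the groups were not separated. The log2 difference was 0.08 ± 0.07, with a 95% interval of -0.074 to 0.24 (limma adjusted p = 0.722). The dimmer probe (ILMN_1234662) read 14.31, 13.81, 14.10 and 13.96 in spermine oxidase muscles, against 13.77, 13.83, 13.67 and 13.47 in control muscles. Here spermine oxidase muscles 1, 3 and 4 lay above all controls and muscle 2 just under control muscle 2. Its log2 difference was 0.36 ± 0.12, 1.29-fold, and did not pass over all probes (limma adjusted p = 0.343). The brighter probe gave 0.04 without spermine oxidase muscle 1, 0.05 without muscle 3 and 0.14 without muscle 4. Whether either probe was saturated cannot be read from these values.

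Among the other globins, Cygb, which encodes cytoglobin, a globin of fibroblasts and related cells, was lower. It read 10.17, 10.05, 10.08 and 9.94 in spermine oxidase muscles, against 10.22, 10.19, 10.19 and 10.23 in control muscles. The groups did not overlap, as was so in the downward direction for 2.51% of all genes. The log2 difference was -0.15 ± 0.04 and did not pass (limma adjusted p = 0.292). The neuronal globin Ngb read between 8.26 and 8.36 on its brighter probe, near the floor, and differed by 0.01 ± 0.03, against -0.04 ± 0.02 on the dimmer one.

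The entry enzymes of heme synthesis differed little. Alas1 (probe ILMN_2664040) read 13.53, 13.20, 13.33 and 13.36 in spermine oxidase muscles 1 to 4, against 13.27, 13.32, 13.23 and 13.25 in control muscles 1 to 4. Spermine oxidase muscle 1 was the highest and spermine oxidase muscle 2 the lowest of the 8. The log2 difference was 0.09 ± 0.06, with a 95% interval of -0.060 to 0.24 (limma adjusted p = 0.681), and was 0.03 without spermine oxidase muscle 1 and 0.14 without muscle 2. Alas2 (probe ILMN_2675874) read 8.51, 8.37, 8.65 and 8.52 in spermine oxidase muscles 1 to 4, against 8.43, 8.46, 8.46 and 8.33 in control muscles 1 to 4. Spermine oxidase muscles 1, 3 and 4 lay above all controls and muscle 2 above control muscle 4 only. Every Alas2 value exceeded the highest of the globins at the floor, 8.32, though control muscle 4 did so by less than 0.01. The log2 difference of Alas2 was 0.09 ± 0.06, with a 95% interval of -0.044 to 0.23 (limma adjusted p = 0.627), and was 0.05 without spermine oxidase muscle 3 and 0.14 without muscle 2. With the same subtraction and offset as above, it was 0.33 (limma adjusted p = 0.576), and that of Fech 0.29.

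Ferrochelatase, the last enzyme, had 3 probes, all of low signal. The brightest (ILMN_1228534) read 8.89, 8.67, 8.79 and 8.75 in spermine oxidase muscles 1 to 4, against 8.61, 8.71, 8.64 and 8.69 in control muscles 1 to 4. Spermine oxidase muscles 1, 3 and 4 lay above every control and muscle 2 below 2 of them. Its log2 difference was 0.11 ± 0.05, with a 95% interval of 0.0059 to 0.22 (limma unadjusted p = 0.0411, adjusted p = 0.426), and was 0.08 without spermine oxidase muscle 1. The others gave 0.05 ± 0.05 (ILMN_2710731) and 0.02 ± 0.02 (ILMN_1229519, between 8.30 and 8.35 in every muscle). Of the 5 listed genes with a probe, then, 5 were higher on the brightest probe, 2 had an unadjusted p under 0.05 and 0 separated the groups, beside 49.2%, 11.0% and 6.18% of all genes. Their median difference was 0.093.

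Between the entry enzymes and ferrochelatase, porphobilinogen synthase stood out. Alad, which encodes the enzyme that joins 2 aminolevulinate molecules, read 10.83, 10.70, 10.83 and 10.62 in spermine oxidase muscles, against 10.44, 10.58, 10.51 and 10.57 in control muscles. Each spermine oxidase muscle exceeded each control muscle, as was so in the upward direction for 3.66% of all genes. Its log2 difference of 0.22 ± 0.06 is 1.17-fold and did not pass over all genes (limma adjusted p = 0.252). Cpox, the coproporphyrinogen oxidase gene, also separated the groups on its brightest probe (0.08 ± 0.03, at 8.40 after spermine oxidase and 8.32 in controls), but its other probes, at the floor, differed by -0.0015 and -0.0050. Urod, uroporphyrinogen decarboxylase, differed by 0.04 ± 0.03, Uros, uroporphyrinogen synthase, by -0.04 ± 0.07 and Ppox, protoporphyrinogen oxidase, by -0.09 ± 0.07. Of 8 measured heme synthesis genes, 6 were higher and 2 lower, 3 had an unadjusted p under 0.05 (all higher), and the median difference was 0.083. Of all genes 49.2% were higher, and 6.33% were so with an unadjusted p under 0.05.

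**Figure D2:**
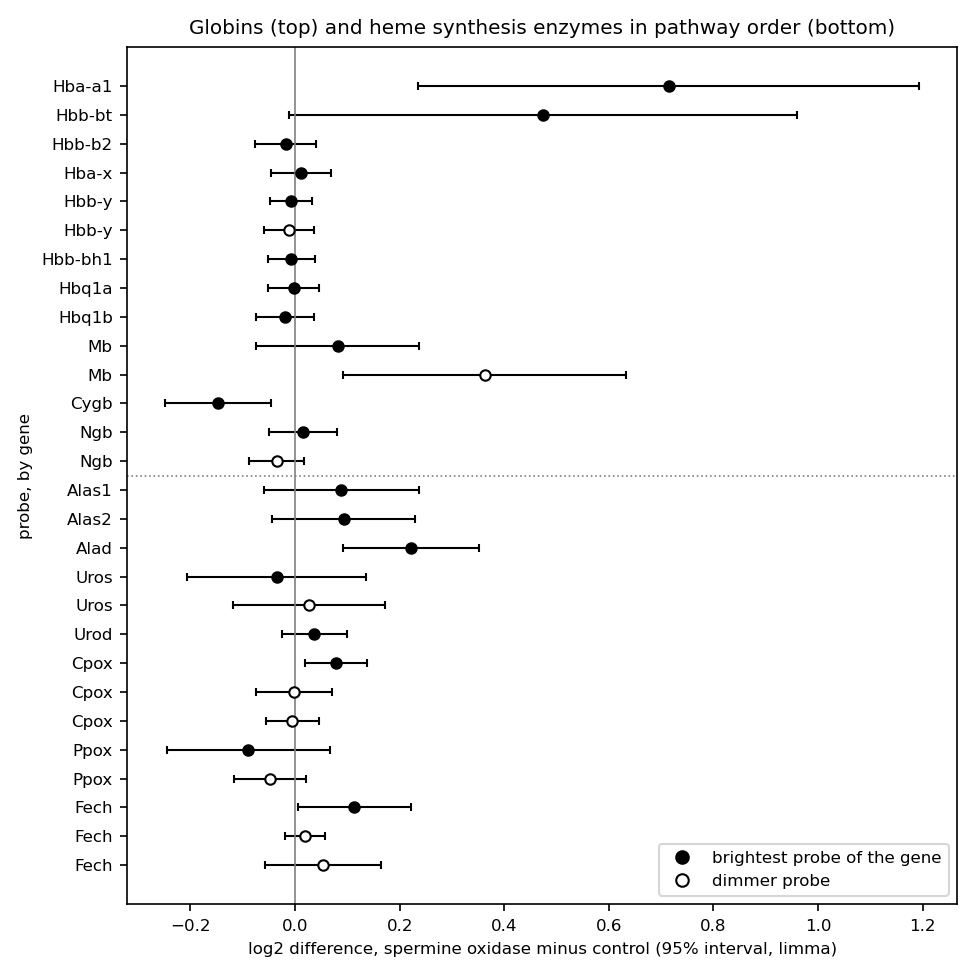
Log2 difference, spermine oxidase minus control, with its 95% interval from limma for every probe of the globin genes (above the dotted line) and of the heme synthesis enzymes in pathway order (below it). Filled points are the brightest probe of a gene and open points the dimmer ones. Hba-a1 (0.71) and Hbb-bt (0.47) lie far to the right of the globins at the floor. The Mb probes differ in size, and Alad (0.22) leads the enzymes.

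The globins and Alas2 varied together from muscle to muscle. Over the 8 muscles, if they are independent, Hba-a1 and Hbb-bt correlated at r = 0.93 (exact permutation p = 0.000694, adjusted p = 0.0104 over the 15 pairs of 6 genes) and rho = 0.90 (exact permutation p = 0.00456, adjusted p = 0.0685). The r was 0.87 without the 2 muscles farthest from the median, spermine oxidase 3 and control 4, and 0.90 after the group means were removed. Hba-a1 and Alas2 correlated at r = 0.86 (exact permutation p = 0.0066, adjusted p = 0.0252) and rho = 0.81 (exact permutation p = 0.0218, adjusted p = 0.0817). For them r was 0.55 without the same 2 muscles, so the relation rests largely on those muscles, and 0.87 after the group means were removed. Hbb-bt and Alas2 gave r = 0.90 (exact permutation p = 0.00327, adjusted p = 0.0246) and rho = 0.83 (exact permutation p = 0.0154, adjusted p = 0.0817), with r = 0.60 without those 2 muscles, on which it too largely rests. Groups of 4 are too small for a value within each.

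Alas1 and Fech formed a second pair. They correlated at r = 0.88 (exact permutation p = 0.00672, adjusted p = 0.0252) and rho = 0.81 (exact permutation p = 0.0218, adjusted p = 0.0817), and r was 0.64 without spermine oxidase muscles 1 and 3, on which the relation largely rests. Fech and Mb gave r = 0.71 (exact permutation p = 0.0485, adjusted p = 0.146), which was -0.23 without the same 2 muscles. Hba-a1 and Alas1 gave r = 0.46, Hba-a1 and Fech r = 0.63 and Hba-a1 and Mb r = 0.57, with adjusted exact permutation p-values of 0.271, 0.228 and 0.259. No rho of any pair passed an adjusted p of 0.05.

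**Figure D3:**
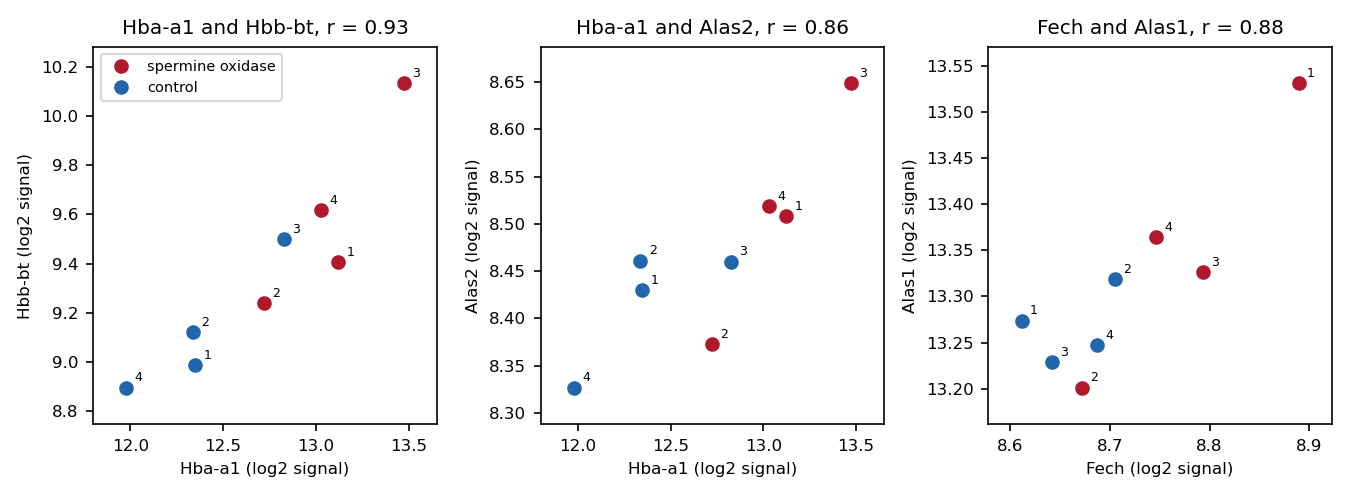
Log2 signals of pairs of genes in the 8 muscles, spermine oxidase in red and control in blue, each point 1 muscle with its number. Hba-a1 and Hbb-bt lie near a line over both groups (r = 0.93), Hba-a1 and Alas2 do so mainly through spermine oxidase muscle 3 and control muscle 4, and spermine oxidase muscle 1 stands at the top of the plot of Fech and Alas1.

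The genes whose pattern over the 8 muscles was most like each gene's were sought among the 8295 other genes with a mean signal above the median, as a description. For Hba-a1 they were Cyp4f39 (r = 0.98), Ppp1r1a (r = 0.98), Cldnd1 (r = 0.98) and Myh4 (r = 0.98), the last being the fastest myosin heavy chain of muscle fibres. For Hbb-bt they were Cpsf2 (r = 0.99), Retnla (r = 0.96), Esyt2 (r = 0.95) and Gadd45g (r = 0.95). For Alas2 they were Pou4f1 (r = 0.96), Them6 (r = 0.95), Gm5347 (r = 0.94) and Celsr2 (r = 0.94). For Fech they were Cdh5, the vascular endothelial cadherin (r = 0.99), Cav2, a caveolin (r = 0.98), Adipor2 (r = 0.98) and Tecpr2 (r = 0.96). For Alas1 they were Gfod2 (r = 0.98), Ak1, the muscle adenylate kinase (r = 0.97), Sf3b6 (r = 0.97) and Cldn12 (r = 0.97). For Mb they were Pef1 (r = 0.95), Cep57 (r = 0.94), Fbxl5, an iron-sensing ubiquitin ligase subunit (r = 0.94), and Flot1 (r = 0.93). With so many genes and 8 muscles, such values also arise between unrelated genes.

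Genes that move or break down heme were read in the same way. Of 11 measured genes of heme and iron transport, 7 were higher and 4 lower, and the differences ran from -0.095 to 0.057. None had an unadjusted p under 0.05, beside 11.0% of all genes. Slc25a38, the mitochondrial glycine carrier that feeds the first step, differed by 0.05 ± 0.04 and Abcb10, a mitochondrial transporter needed for heme synthesis, by 0.06 ± 0.05. Abcg2, a porphyrin exporter at the floor here, differed by 0.04 ± 0.02 and Tmem14c, a mitochondrial porphyrin carrier, by -0.08 ± 0.06. Of 10 measured genes of heme breakdown and scavenging, 4 were higher and 6 lower, and 1 had an unadjusted p under 0.05, beside 11.0% of all genes. Cd163, the macrophage receptor for haemoglobin bound to haptoglobin, read 8.65, 8.55, 8.70 and 8.72 in spermine oxidase muscles, against 8.51, 8.38, 8.44 and 8.41 in control muscles. Its groups did not overlap, as was so in the upward direction for 3.66% of all genes. The log2 difference of Cd163, 0.22 ± 0.04, did not pass (limma adjusted p = 0.179). Its dimmer probe, at the floor, gave 0.02 ± 0.02. Hmox1, the inducible heme oxygenase that opens the heme ring, differed by 0.09 ± 0.09 and Hmox2, the constitutive form, by -0.08 ± 0.06. The heme-binding protein genes Hebp1 and Hebp2 differed by -0.25 ± 0.11 and -0.05 ± 0.02.

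Of 13 measured genes of iron uptake, storage and regulation, 7 were higher and 6 lower. Slc40a1, which encodes the iron exporter ferroportin, read 11.56, 10.76, 10.90 and 10.86 in spermine oxidase muscles, against 10.79, 10.42, 10.56 and 10.34 in control muscles. Control muscle 1 exceeded spermine oxidase muscle 2, and the log2 difference of 0.49 ± 0.18 did not pass (limma adjusted p = 0.383). Nfs1, the cysteine desulfurase of iron-sulfur cluster assembly, differed by 0.17 ± 0.07 and Iscu, the scaffold of that assembly, by 0.08 ± 0.04. Tfrc, the transferrin receptor gene, differed by -0.14 ± 0.08 and Fth1, the ferritin heavy chain gene, by 0.02 ± 0.03. Ireb2, which encodes an iron regulatory protein, was lower in each spermine oxidase muscle than in any control muscle, as were 2.51% of all genes. Its log2 difference was -0.06 ± 0.02 (limma adjusted p = 0.286).

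Of 15 measured genes of other heme proteins and their assembly, 11 were higher and 4 lower, with a median of 0.018. Cox10, whose enzyme acts on the way to the heme a of cytochrome oxidase, differed by 0.27 ± 0.12. Sdhd, a heme-binding subunit of complex II, differed by 0.25 ± 0.08 and Cyb5r3, a reductase for cytochrome b5 and methaemoglobin, by -0.32 ± 0.11. None of the 3 passed over all genes (limma adjusted p of 0.358 to 0.447). Cox15, whose enzyme acts after that of Cox10 on the way to heme a, differed by -0.17 ± 0.08. Nos1, the neuronal nitric oxide synthase gene, differed by 0.05 ± 0.02. The dimmer probes of Cyb5r3 differed by -0.07 ± 0.04 and 0.01 ± 0.04.

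Fibre type genes, beside which myoglobin is usually read, leaned in opposite directions, with exceptions. Of 13 measured slow and oxidative fibre genes 9 were lower and 4 higher, and 5 of the 13 had an unadjusted p under 0.05 in the downward direction, beside 4.72% of all genes, and 1 in the upward direction, beside 6.33%. The slow troponin genes Tnni1 and Tnnt1 differed by -0.86 ± 0.20 and -0.72 ± 0.21, the slow calsequestrin gene Casq2 by -0.75 ± 0.20 and the slow calcium pump gene Atp2a2 by -0.70 ± 0.21. On the other side stood the slow light chain genes Myl2 at 0.39 ± 0.52 and Myl3 at 0.34 ± 0.37, and Cox7a1, a cytochrome oxidase subunit gene, at 0.16 ± 0.06 (limma adjusted p = 0.389). Myh7, a slow myosin heavy chain gene, and Cd36, both among the 9 lower, lay at the floor in every muscle. Of 12 fast fibre genes 10 were higher and 2 lower, beside 49.2% of all genes higher, with a median difference of 0.049. An unadjusted p under 0.05 was reached by 2 of the 12, both higher, beside 6.33% of all genes. Myh4 differed by 0.34 ± 0.11 and the calsequestrin gene Casq1 by 0.27 ± 0.14. Actn3, an alpha-actinin gene, differed by 0.13 ± 0.06 and the parvalbumin gene Pvalb by 0.05 ± 0.02. The mean level of the slow list ran from 10.54 to 10.99 in spermine oxidase muscles and from 10.81 to 11.23 in controls, and that of the fast list from 14.54 to 14.64 in spermine oxidase muscles and from 14.45 to 14.59 in controls. The part of fibre type in the Mb values was not tested.

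**Figure D4:**
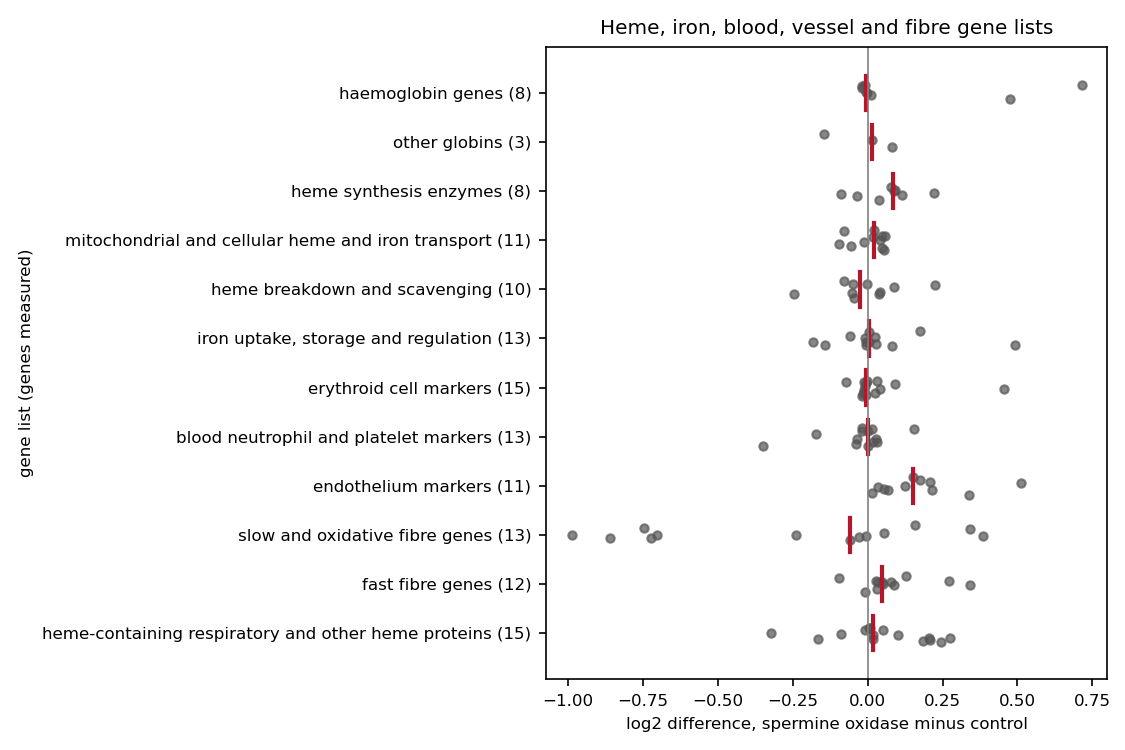
Log2 difference, spermine oxidase minus control, of each measured gene (grey points, brightest probe) in 12 gene lists, with the median of each list as a red bar. Most haemoglobin and erythroid genes sit at 0, Hba-a1, Hbb-bt and Sptb lie to the right, the endothelial genes are all above 0 (median 0.15), and several slow fibre genes lie below -0.70.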

How the data were processed

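Per the labels' protocols, total RNA of 8 tibialis anterior muscles was taken up in TRIzol, cleaned on RNeasy columns with DNase, and turned into biotinylated cRNA. The values analysed are the log2 signals the authors deposited. The log2 scale follows from their range. Sorted by size, values of equal rank lay within 0.155 of each other on all 8 arrays, so the authors' deposited log2 values were already scaled to a shared distribution. How this and any background correction were done is not stated. Arrays have no read depth, and their number limits the precision.

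Gene names came from GEO's annotation of the platform (23978 of 25697 with 1 gene, 0 with several, 1719 unnamed here) and were checked by Entrez identifier against RefSeq's GRCm38.p6 table, where 23962 were found. No filter on dim probes was applied. Spermine oxidase and control muscles, grouped by title, were compared on the brightest probe of each gene, by lmFit and eBayes of limma 3.58.1 (R 4.3.3), two-sided and with no replicate block. Dimmer probes come from a fit over all probes. The fit was tested on simulated data. Figures used matplotlib 3.10.9.

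The genes and the 12 lists (149 entries, 17 not measured) were chosen with earlier results of these data known. Named were every measured globin and heme synthesis gene, up to 4 genes of each other list with the smallest p, the 4 genes most alike by Pearson r and Smox. Hmox1, Slc4a1, Klf1, Epor, Bpgm, Pf4, Tfrc, Fth1, Kdr, Myl2, Myl3, Cox7a1, Cox15 and the markers listed as at the floor were added after their values were seen. Alternatives tried were the replicate block, quantile normalization, median centring, removal of the dimmest 40% of probes, averaging over a gene's probes, fitting each probe separately, a robust prior with an intensity trend, subtraction of the lowest value with an offset of 16, and leaving out each muscle. All settings for Hbb-bt, and leaving out 2 muscles together, were added after seeing the data.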

Additional observations from a re-analysis of the deposited data

Results flagged for a closer look

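In 100 groups of 4 muscles examined, 5 held a muscle far from the other 3 by Dixon's criterion, which chance alone meets in about 1 of 20 groups. None was in a probe of Hba-a1, Hbb-bt, Mb, Alas1, Alas2 or Fech. Cpox read 8.46 in spermine oxidase muscle 1, against 8.37 to 8.38 in the other spermine oxidase muscles. Sptb read 11.90 in spermine oxidase muscle 1, against 11.37 to 11.45 in the others of its group. Sdhd read 9.89 in spermine oxidase muscle 2, against 10.21 to 10.24 in the others. Actn3 read 14.84 in spermine oxidase muscle 4, against 14.92 to 14.93 in the others. Ngb read 8.36 in control muscle 3, against 8.26 to 8.27 in the other controls.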

How the results depend on the processing

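The differences of Hba-a1, Mb, Alas1, Alas2, Fech and Hbb-bt kept their sign and stayed above an adjusted p of 0.05 in all 102 values of the 17 other settings. Across them Hba-a1 ran from 0.57 to 0.87, Hbb-bt from 0.30 to 0.79, Mb from 0.04 to 0.22, Alas1 from 0.02 to 0.14, Alas2 from 0.05 to 0.33 and Fech from 0.06 to 0.29. Several settings could not change these differences, only their errors: the replicate block, removal of dim probes, separate fits of probes and the robust prior. Averaging over probes likewise left Hba-a1, Hbb-bt, Alas1 and Alas2 unchanged, as each has a single probe. The kept signs under those settings are therefore no test. The lowest adjusted p across all settings was 0.0576, for Hba-a1 with the replicate block. Hbb-b1 has no value because no probe here carries its name. The count of genes called with limma, 0 of 16593, was 266 with the replicate block, 8 with an intensity trend and robust prior, 1 with the lowest value subtracted and an offset of 16, and 0 to 14 when 1 muscle was left out, the 14 without spermine oxidase muscle 2. The cause was not tested. Equal numbers were not taken as pairs: deviations from the group means correlated at 0.58, 0.65 and 0.60 for numbers 1, 3 and 4 but at -0.13 for number 2, so that not every sample correlated best with its own number. Between equal numbers 1 to 4, Hba-a1 differed by 0.77, 0.38, 0.65 and 1.05, Alas2 by 0.08, -0.09, 0.19 and 0.19, and Fech by 0.28, -0.03, 0.15 and 0.06. The number of arrays and the floor of the signal limit what could be seen in Alas2 and Fech.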
